A study of Mus musculus with 2 samples.

Results

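The 6 miRNA genes described here, Mir10a, Mir10b, Mir196a-1, Mir196a-2, Mir196b and Mir615, lie inside the Hox clusters of the mouse. They were chosen by name and position, not by their levels, and make up 6 of the 2202 miRNA genes that the deposited count tables list. The tables hold small RNA reads from the hearts of 2 male mice of the strain B6CASTF1/J, a first-generation hybrid of C57BL/6J and CAST, taken 25 days after birth. The age and source labels give days, although the free-text descriptions give months as the unit. The labels name no treatment or genotype contrast and both animals belong to 1 group, so the comparison made is between the 2 hearts. They are called replicates 1 and 2, as the labels number them. Each animal has a number of its own in the labels, yet the donor identifier is the same for both, so the spread between the libraries may be technical. Heart tissue is a mixture of cells, and in such bulk RNA fewer cells of a type and less RNA per cell cannot be told apart.

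MicroRNAs are cut from hairpin transcripts into mature RNAs, 1 from each arm (5p and 3p), and pair with target messenger RNAs mainly through the seed, bases 2 to 8. The Hox clusters hold the transcription factor genes that set position along the body axis, and their order on the chromosome follows the order in which they are used from head to tail. The miRNA genes within them are thought to be transcribed with the neighbouring Hox genes and to repress Hox messengers among other targets. Mir10a and Mir10b are also known from the growth of blood vessels, Mir196b from blood progenitors, and Mir615 sits within Hoxc5.

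The mature sequences show which of these genes the counts can tell apart. They come from RefSeq on the build GRCm38.p6, which matched all 6 genes, are written 5′ to 3′, and have the seed in capitals.
mmu-miR-10a-5p: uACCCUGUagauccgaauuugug
mmu-miR-10b-5p: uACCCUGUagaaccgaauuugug
mmu-miR-196a-5p: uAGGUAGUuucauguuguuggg
mmu-miR-196b-5p: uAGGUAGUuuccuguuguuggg
mmu-miR-615-5p: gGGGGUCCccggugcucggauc
mmu-miR-615-3p: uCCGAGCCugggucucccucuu

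The 5p RNAs of Mir10a and Mir10b share the seed ACCCUGU and differ at 1 of 23 bases, U12A, with positions counted from 1 at the 5′ end and the miR-10a base given first. Those of the Mir196 genes share the seed AGGUAGU, and miR-196a-5p and miR-196b-5p also differ at 1 base of 22, again at position 12 (A12C, the miR-196a base first). In both families the single difference lies outside the seed. No other mature RNA among the 1738 RefSeq entries carries either seed, and each seed of Mir615 (GGGGUCC and CCGAGCC) occurs once. The seed of miR-196 holds 6 bases in a row of GAGGUAG, the seed of the let-7 family, shifted by 1 base.

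Mir196a-1 and Mir196a-2 make the identical miR-196a-5p, and only their 3p RNAs differ, at 17 of 22 positions. These are shown because reads of miR-196a-5p cannot be placed at 1 of the loci, whereas reads of the 3p arms can.
mmu-miR-196a-1-3p: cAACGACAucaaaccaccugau
mmu-miR-196a-2-3p: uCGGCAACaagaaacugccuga

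A run of 22 bases is common to the Mir196a-1 and Mir196a-2 hairpins. Mir10a shares at most 15 bases in a row with another listed miRNA gene, its partner Mir10b, while Mir196b shares at most 12 and Mir615 at most 14. No run of 18 bases or more joins these 4 genes to another listed miRNA gene, so whole reads of mature length separate them from the other annotated miRNA genes. How many mismatches the counting allowed is not given in the sources used here, and a read error at position 12 would turn miR-10a-5p into miR-10b-5p.

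Each of the 4 Hox clusters holds at least 1 of the members, in mm10 with GENCODE M21. Mir10a lies in the Hoxb cluster on chromosome 11 (96317165 to 96317274, plus strand), in no annotated gene of its strand, 993 bases before Hoxb4. Mir10b occupies the matching place of the Hoxd cluster on chromosome 2 (74726070 to 74726137, plus strand), within introns of Hoxd4 and Hoxd3. Mir196b is in the Hoxa cluster on chromosome 6 (52230081 to 52230165, minus strand), 1032 bases past Hoxa10 and inside Hoxa9. It falls in an exon or an intron of Hoxa9, depending on the transcript. Mir196a-1 lies 6192 bases before Hoxb9 on chromosome 11 (96265164 to 96265265, plus strand), in no annotated gene of its strand. Mir196a-2 and Mir615 are both in introns of Hoxc5 on chromosome 15, Mir196a-2 at 102973350 to 102973434 between Hoxc10 and Hoxc9, and Mir615 at 103014910 to 103015001 between Hoxc6 and Hoxc4, both on the plus strand. The Mir10 genes thus sit beside Hox4 genes, which are used toward the head, and the Mir196 genes beside Hox9 and Hox10 genes, used toward the tail. An additional annotated miRNA gene, Gm44463 in the Hoxd cluster, had 0 counts in both hearts.

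**Figure D1:**
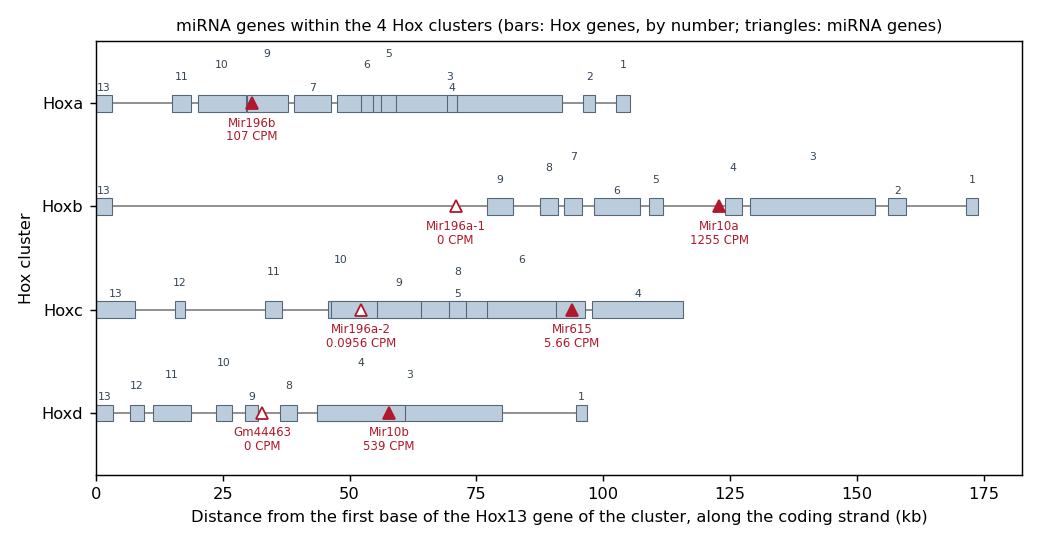
The 4 Hox clusters of the mouse drawn along their coding strand, with distance from the first base of each Hox13 gene in kb on the x axis, Hox genes as bars numbered above and miRNA genes as triangles with their mean level over both hearts. Filled triangles mark genes at 1 CPM or more, and Mir10a (1255 CPM) and Mir10b (539 CPM) lie beside the Hox4 genes.

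The hairpins of Mir10a and Mir10b, the members with the highest counts, are given from GENCODE M21 with the mature arms in capitals. They show that the annotated genes differ in length while the arms do not, which bears on any level given per base.
Mir10a: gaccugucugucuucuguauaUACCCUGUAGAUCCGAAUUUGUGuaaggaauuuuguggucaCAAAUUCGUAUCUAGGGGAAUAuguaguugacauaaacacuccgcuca
Mir10b: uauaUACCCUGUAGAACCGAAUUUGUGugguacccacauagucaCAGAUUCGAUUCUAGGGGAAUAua

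Mir10a is annotated with 110 bases and Mir10b with 68, but both make mature RNAs of 23 (5p) and 22 (3p) bases. Because RNA below 30 nucleotides was sequenced, counts of these genes were compared per mature RNA. The deposited tables give 1 count per gene, so reads of the 5p and 3p arms are summed.

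Levels are given as counts per 1000000 assigned reads (CPM), from 4930853 reads assigned to miRNA genes in replicate 1 and 5229819 in replicate 2. A single count was worth 0.203 CPM in the first library and 0.191 CPM in the second, and a gene at 0 counts is given a limit of 3 counts, 0.608 and 0.574 CPM. The two-sided exact Poisson interval used for the other levels reaches further for 0 counts, to 0.748 and 0.705 CPM. Genes with 10 counts or more in each library are called detected, a level which 356 of the 2202 listed genes reached (16.2%) and 4 of the 6 members: Mir10a, Mir10b, Mir196b and Mir615. All intervals below are at 95% and cover counting error only. Whether the intervals of the 2 hearts overlap is a description and not a test, and the test between the hearts is given further below.

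Among reads placed at 1 locus, Mir10a was the member with the highest level in both hearts. It had 7961 counts in replicate 1 and 4687 in replicate 2, or 1615 CPM (exact Poisson interval 1579 to 1650) and 896 CPM (871 to 922), a mean of 1255 ± 508 CPM (SD, n = 2). By mean level it ranked 66th of the 356 detected genes, 51st in replicate 1 and 76th in replicate 2. The intervals of the 2 hearts do not overlap, but a difference beyond counting error was common, called for 63.5% of the detected genes by the test below.

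Mir10b, the paralogue with the same seed, had 2571 and 2909 counts in replicates 1 and 2, or 521 CPM (501 to 542) and 556 CPM (536 to 577). Its mean was 539 ± 24.6 CPM (SD, n = 2), the 89th highest of the detected genes. The 2 hearts lay close together, and the intervals overlap slightly.

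Mir196b, in the Hoxa cluster, had 642 counts in replicate 1 and 442 in replicate 2. These equal 130 CPM (120 to 141) and 84.5 CPM (76.8 to 92.8), with a mean of 107 ± 32.3 CPM (SD, n = 2) and rank 149. Its intervals do not overlap either, beside the same 63.5% of detected genes called, and the gene was lower in replicate 2.

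Mir615 was low, with 37 counts in replicate 1 and 20 in replicate 2, or 7.50 CPM (5.28 to 10.3) and 3.82 CPM (2.34 to 5.91). Its mean was 5.66 ± 2.60 CPM (SD, n = 2), rank 307 of 356, and the intervals of the 2 hearts overlap. With a minimum of 100 counts it would not count as detected, and 3 members remain.

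Mir196a-1 had 0 counts in both libraries, and Mir196a-2 had 0 in replicate 1 and 1 in replicate 2. No ratio between the hearts is given for them. These counts do not give the level of miR-196a-5p, since the tables keep reads that fit more than 1 locus in a separate tally. Those reads numbered 5497619 in replicate 1 and 5375745 in replicate 2, or 1.11 and 1.03 for each assigned read, and their genes are not named in the tables. What the counts do limit is RNA that can be placed at 1 locus, such as the 3p arms. For Mir196a-1 the 0 counts allow up to 0.608 and 0.574 CPM. For Mir196a-2 they allow 0.608 CPM in replicate 1, and its 1 count in replicate 2 equals 0.191 CPM with an exact Poisson interval up to 1.07 CPM. Mir196b has its own 5p sequence and is not affected in this way by the run of 22 bases.

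**Figure D2:**
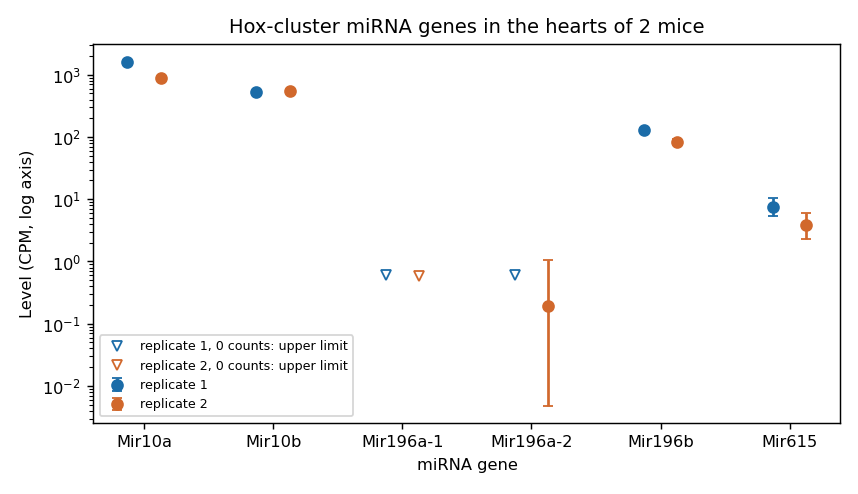
Level of each of the 6 genes in replicate 1 (blue) and replicate 2 (orange) in CPM on a log axis; bars are exact Poisson intervals and open triangles the limit that 0 counts allow. The 4 detected genes keep the same order in both hearts, from Mir10a at 1615 and 896 CPM to Mir615 at 7.50 and 3.82 CPM.

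The order Mir10a, Mir10b, Mir196b, Mir615 held in both hearts, and the ranges of neighbouring genes over the 2 hearts do not overlap. Together the 6 genes had 11211 and 8059 counts, 0.227% and 0.154% of assigned reads, or 1907 ± 518 CPM (SD, n = 2). These sums and the shares that follow cover reads placed at 1 locus and leave out reads of miR-196a-5p that fit both of its loci. The intervals of the shares do not include that gap. Mir10a supplied 71.0% of the members' counts in replicate 1 (70.2 to 71.8%, by the exact Clopper-Pearson method) and 58.2% in replicate 2 (57.1 to 59.2%). Mir10b supplied 22.9% (22.2 to 23.7%) and 36.1% (35.0 to 37.2%). The share of Mir196b was nearly the same in both, 5.73% (5.30 to 6.17%) in replicate 1 and 5.48% (4.997 to 6.004%) in replicate 2.

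Reads of the 4 detected members were on the annotated strand. The column for the opposite strand lists 0 counts for all 6 genes in both hearts, and the unstranded column lists the same counts as the strand of the gene. With 0 counts in all columns for Mir196a-1 and 1 for Mir196a-2, nothing can be read of their strand.

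Between the hearts, Mir10a, Mir196b and Mir615 were lower in replicate 2 and Mir10b was slightly higher. Each gene's 2 counts were compared by the exact binomial test conditional on their sum (two-sided), with Benjamini-Hochberg adjustment over the 356 detected genes at 0.05. All 4 detected members passed it, but so did 226 of the 356 genes (63.5%), with 30.6% called lower and 32.9% called higher in replicate 2. The test sets the difference against counting error alone and compares 2 libraries, so a call is common among these genes and says nothing of a condition.

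Mir10a was 1.80-fold higher in replicate 1 (exact interval 1.74 to 1.87), a log2 ratio of replicate 2 over replicate 1 of -0.85 (exact binomial test, adjusted p = 1.27e-231). Among the detected genes, 85 had a larger absolute log2 ratio (23.9%), against a median log2 ratio of 0.02 and an SD of 0.86 over all 356. Mir196b was 1.54-fold higher in replicate 1 (1.36 to 1.74), with a log2 ratio of -0.62 (exact binomial test, adjusted p = 5.43e-12), and 131 genes had a larger one in size. For Mir615 the fold was 1.96 (1.11 to 3.57) and the log2 ratio -0.96 (exact binomial test, adjusted p = 0.0269). The low count of Mir615 leaves that fold with a wide interval. With DESeq2 size factors its call was lost (adjusted p = 0.0529, against 0.0192 to 1 over its alternatives), but these factors came out at 1 for both libraries, so that setting compares raw counts with no correction for depth.

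Mir10b was 1.07-fold higher in replicate 2 (1.01 to 1.13), a log2 ratio of 0.09 (exact binomial test, adjusted p = 0.0284), and 307 of the 356 detected genes (86.2%) had a larger ratio in size. That call depended on the scaling: with the TMM factors of edgeR the log2 ratio was 0.05 (adjusted p = 0.311), and over its alternatives the adjusted p ran from 1.17e-05, in the comparison of raw counts, to 1.

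When the spread over all detected genes was used in place of counting error, none of the 4 members passed. In that test both libraries were treated as 1 group, and edgeR estimated a common coefficient of variation of 0.389. The tool terms it biological, but here it is the spread between 2 libraries, which may be technical. The exact test of edgeR between the hearts gave an adjusted p of 1 for each member. It called 4 of 356 genes (1.12%), and 19 had an unadjusted p under 0.05. The unadjusted p values were 0.297 for Mir10a, 0.909 for Mir10b, 0.447 for Mir196b and 0.299 for Mir615. Because that spread was estimated from the same 2 libraries, a gene with a change of common size could hardly pass. The outcome only places the 4 members within the spread of the detected genes, and is no separate evidence that they were equal in the hearts.

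**Figure D3:**
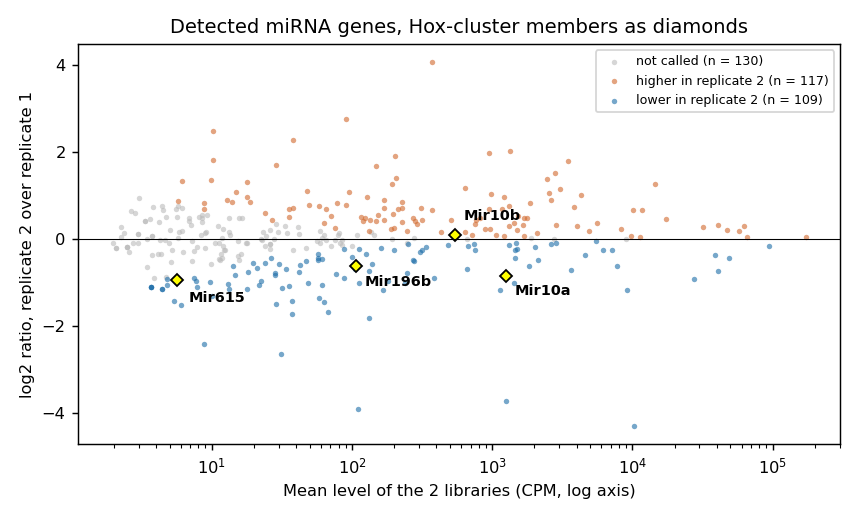
The log2 ratio of replicate 2 over replicate 1 against the mean level in CPM (log axis) for the 356 detected miRNA genes, coloured by the call of the exact binomial test, with the 4 detected Hox-cluster genes as yellow diamonds. Mir10b lies near 0 at 0.09, and Mir10a (-0.85), Mir196b (-0.62) and Mir615 (-0.96) lie below it within the cloud of other genes.

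The proportion of the 2 genes with the miR-10 seed differed between the libraries by more than counting error. In replicate 1 there were 0.323 counts of Mir10b for each count of Mir10a (exact interval 0.309 to 0.338), and in replicate 2 there were 0.621 (0.592 to 0.650). The proportion was thus 1.92 times as high in replicate 2 (1.80 to 2.05, Fisher's exact test on the 4 counts, two-sided p = 5.78e-89), whatever the scaling. That test takes reads as independent and sets 2 libraries against counting error alone. On the log2 scale the change was 0.94, beside the SD of 0.86 that the log2 ratios of single genes had between these libraries. The change combines the ratios of 2 genes, so that SD is not a like measure, and the spread over pairs of genes was not computed. Mir10a was the higher of the pair in both hearts, by 3.10-fold (2.96 to 3.24) in replicate 1 and 1.61-fold (1.54 to 1.69) in replicate 2. Divided by the annotated lengths of 110 and 68 bases, the proportions would be 0.522 and 1.00, so that in replicate 2 the order of the pair would be lost. Added together, the 2 genes gave 2136 CPM in the first heart and 1452 CPM in the second, 1.47-fold higher in replicate 1 (1.43 to 1.51).

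Other pairs of members were followed in the same way, without a test, and were chosen after the counts were seen. Mir196b stood at 0.0806 (0.0743 to 0.0874) of Mir10a in replicate 1 and 0.0943 (0.0853 to 0.104) in replicate 2, a change of 1.17 times (1.03 to 1.33). Against Mir10b it stood at 0.250 (0.229 to 0.272) and 0.152 (0.137 to 0.168), a change to 0.609 times (0.532 to 0.696). Mir615 stood at 0.00465 and 0.00427 of Mir10a, and the interval of that change, 0.504 to 1.63, includes 1. Mir615 stood at 0.0144 and 0.00688 of Mir10b, a change to 0.478 times (0.262 to 0.847), and at 0.0576 and 0.0452 of Mir196b, where the interval of the change (0.426 to 1.41) includes 1.

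**Figure D4:**
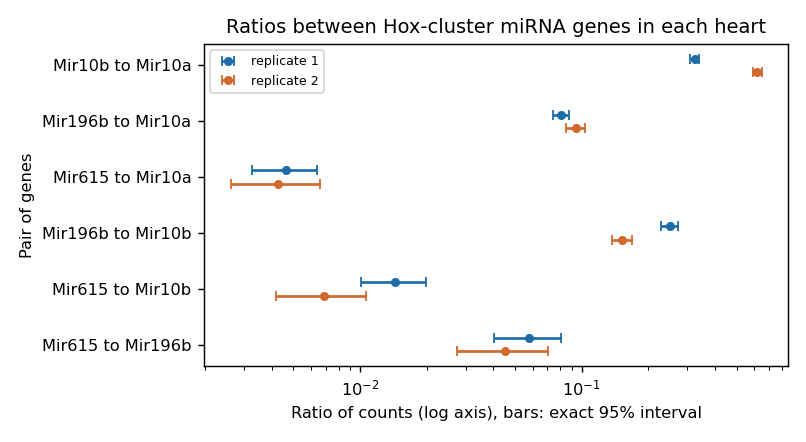
Ratios of counts between the 4 detected Hox-cluster genes in replicate 1 (blue) and replicate 2 (orange) on a log axis, with exact intervals. The ratio of Mir10b to Mir10a moved from 0.323 to 0.621, while that of Mir196b to Mir10a moved from 0.0806 to 0.0943.

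Mir99a, Mir99b and Mir100 are known relatives of the Mir10 genes outside the Hox clusters, and Mir125a, Mir125b-1 and Mir125b-2 are their partners in shared clusters. The sequences show the relation, with the seed in capitals.
mmu-miR-99a-5p: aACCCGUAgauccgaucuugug
mmu-miR-99b-5p: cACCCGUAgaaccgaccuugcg
mmu-miR-100-5p: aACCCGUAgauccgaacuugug
Their seed ACCCGUA shares the 4 bases ACCC with the seed of miR-10 and then departs from it. From position 7, near the end of the seed, miR-10a-5p holds the run GUAGAUCCGAA of miR-100-5p and the run GUAGAUCCGA of miR-99a-5p. With miR-10b-5p the longest run is GUAGAACCGA, in miR-99b-5p, so the base at which miR-10a and miR-10b differ also divides these relatives.

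The relatives were far more abundant than the Hox-cluster genes. Mir99a was at 38937 ± 7038 CPM, Mir99b at 9101 ± 4941 CPM and Mir100 at 7179 ± 912 CPM (SD, n = 2). Together they held 6.43% and 4.61% of assigned reads in replicates 1 and 2, against 0.214% and 0.145% for Mir10a and Mir10b. Their 5p RNAs share at most 11 bases in a row with those of the Mir10 genes.

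All 6 relatives and partners were called, 3 higher and 3 lower in replicate 2, beside 32.9% and 30.6% of all genes tested. Mir99a (log2 ratio -0.37), Mir99b (-1.17) and Mir100 (-0.26) were lower in replicate 2, the direction of Mir10a. Mir125a (0.67), Mir125b-1 (0.34) and Mir125b-2 (1.25) were higher, at 10052 ± 3250, 290 ± 48.1 and 192 ± 111 CPM (SD, n = 2). The median log2 ratio of the 6 genes was 0.04, against 0.02 over all detected genes and -0.74 over the 4 detected members.

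**Figure D5:**
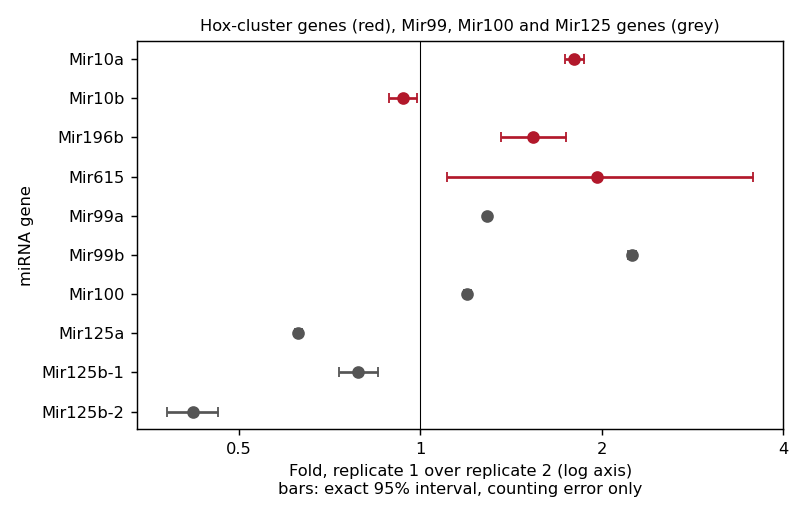
Fold of replicate 1 over replicate 2 on a log axis, with exact intervals, for the 4 detected Hox-cluster genes (red) and the Mir99, Mir100 and Mir125 genes (grey). Mir10a (1.80), Mir196b (1.54) and Mir615 (1.96) lie to the right of 1, as do the Mir99 and Mir100 genes. Mir10b (0.937) lies slightly to the left, closer to 1 than the Mir125 genes (0.42 to 0.79), and its call depended on the scaling.

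Markers of cell types also moved between the hearts. Both erythroid markers, Mir451a and Mir144, were lower in replicate 2, with a summed level of 21812 and 1161 CPM in replicates 1 and 2, and none was at 0. With these 2 genes left out of the library totals, Mir10a had a log2 ratio of -0.88 and Mir196b of -0.65. Mir10b then lost its call (log2 ratio 0.06, adjusted p = 0.152), and Mir615 kept its call as lower (log2 ratio -0.99, adjusted p = 0.0196). Whether RNA of red blood cells itself carries these members was not tested.

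The endothelial markers went the other way from Mir10a, Mir196b and Mir615, and the same way as Mir10b, whose change was slight. Of the 4 listed endothelial genes 3 were detected, all higher in replicate 2. The summed level of that list was 57798 and 72018 CPM in replicates 1 and 2, led by Mir126a at 62907 ± 9214 CPM. Smooth muscle and fibroblast markers summed to 33441 and 45971 CPM, with 4 of 5 detected genes higher in replicate 2 and 1 not called. Mir199a-1 was at 0 among reads placed at 1 locus, which need not mean that its mature RNAs were absent. Heart muscle markers summed to 4531 and 6556 CPM over 7 genes, with 5 detected, of which 1 was higher, 1 lower and 3 not called. The gene called higher was Mir208a, at 1361 and 3562 CPM in replicates 1 and 2. The gene called lower was Mir499, at 2933 and 2758 CPM, so the rise of the sum was not shared over the list. Mir499, the gene of that list with the highest level among reads placed at 1 locus, was at 2846 ± 124 CPM. RNA of genes on the heart muscle list was thus present. Reads that fit more than 1 locus are in no gene's count. The order and the summed levels of these lists leave them out and need not give the full level of a marker. Leukocyte markers (5 of 6 matched) summed to 5437 and 6444 CPM, with 3 higher, 1 lower and 1 not called. Epithelial markers summed to 397 and 438 CPM, with 2 higher, 2 lower and 1 not called among 5 detected. The part of these cell types in the members' ratios was not tested.

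By level alone, the detected genes closest to Mir10a were Mir16-1, Mir20a and Mir106b, at distances of 0.26, 0.37 and 0.47 log2 CPM over the 2 libraries. Closest to Mir10b were Mirlet7c-1 (0.26), Mir542 (0.27) and Mir497 (0.35), and to Mir615 Mir3097 (0.33), Mir495 (0.34) and Mir211 (0.38). Mir196b had the nearest neighbours, Mir18 at a distance of 0.03 with 631 and 445 counts, Mir204 at 0.06 with 643 and 424 counts, and Mir186 at 0.19 with 562 and 449 counts. With 2 libraries this distance describes similar levels only.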

How the data were processed

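Small RNA reads of 2 heart libraries were used as deposited, as raw read counts per miRNA gene. The text the authors deposited with the tables names mm10 and GENCODE M21; the aligner, counter and settings were not given in the sources used here. Every table has 3 count columns, of which the gene-strand column was taken, and 4 entries for reads given to no gene, which were left out of totals. They included reads at several loci (41.6% and 37.4% of reads) and unmapped reads (15.0% and 20.2%). The build is the C57BL/6J genome, and reads of CAST alleles were compared with it. All 2202 identifiers matched GENCODE M21.

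Log2 ratios used a pseudocount of 0.5 counts. Tests were the exact conditional binomial test (scipy 1.17.1) and, as alternatives, edgeR 4.0.16 (TMM, exact test with a common dispersion) and DESeq2 1.42.0 size factors; 2 libraries of 1 group allow no quasi-likelihood test. The binomial test was tried on simulated counts with counting error only. The edgeR estimate of spread was tried on simulated counts with a set spread. The first trial does not cover spread between libraries beyond counting error. The members, the Mir10 relatives, the cell type lists and the rule for named genes (all members, other miRNA genes of the Hox clusters, the relatives, the 3 genes nearest in level, the top gene of a list) were written with earlier results of these data known. Mir144, Mir199a-1 and Mir208a were named outside it. Runs shared between hairpins were searched on both strands of the listed miRNA genes only. The ratios of pairs other than Mir10b to Mir10a, and totals without Mir451a and Mir144, were added after seeing the data.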

Additional observations from a re-analysis of the deposited data

How the results depend on the processing

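Mir10a stayed lower in replicate 2 under TMM, DESeq2 size factors (1 for both libraries), the unstranded column, minimums of 1 and 100 counts and totals without erythroid markers (log2 ratio -0.90 to -0.76, called in each), and lost its call only with edgeR's common dispersion (-0.85). Mir10b kept its direction but lost its call with TMM (0.047), without the erythroid markers (0.063) and with edgeR's common dispersion (0.093). For TMM and for the totals without erythroid markers, the change in the library totals is the only difference; with the common dispersion, the larger spread is. Genes called numbered 180 to 237 under the other settings and 4 with the common dispersion. The summed level of the members was 705 CPM when scaled to all reads and 2625 CPM with the unstranded column, whose totals of 3588090 and 3791591 leave out the 1342888 and 1438359 reads that column tallies as ambiguous. The Mir10b to Mir10a ratio of 0.472 (mean) became 0.763 per annotated base. Leaving out 1 replicate gave 0.323 to 0.621 for that ratio and 1541 to 2274 CPM for the summed level, with no test. No result reversed. No paired analysis was possible because both libraries belong to 1 group. The count of Mir615 and the reads placed at several loci limit what can be said of Mir615 and of the Mir196a genes.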
